A study of Drosophila melanogaster with 3 samples.

Results

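The genes described here encode the core subunits of Polycomb repressive complex 1 (PRC1) in Drosophila melanogaster and a protein that joins it. The 7 listed genes, Pc, ph-p, ph-d, Psc, Su(z)2, Sce and Scm, were all found by symbol among 13945 annotated protein-coding genes. Every peak of the chromatin immunoprecipitation sequencing (ChIP-seq) data with its summit in one of these genes or within 5 kb of either end was taken. The precipitated protein was Jumeau (jumu), a forkhead transcription factor, made as a jumu-eGFP fusion (strain jumu-MiMIC-GFP, in which an intron of the gene carries an added eGFP exon) and pulled down with an antibody to GFP. All 3 samples were whole embryos of mixed sex, from 0 to 24 hours old, with the same genotype and no treatment, so there was 1 group of 3 biological replicates. No sample without the fusion was analysed here, and the age range mixes all embryonic stages and tissues, so the cells behind a peak are unknown.

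PRC1 keeps developmental genes silent in cells where they were not switched on. It binds chromatin that carries methylated lysine 27 on histone H3, ubiquitylates histone H2A and compacts nucleosome arrays. In flies its loss lets Hox genes act in the wrong segments, which gave many of these genes their names.

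Peaks come from lists of the authors. The optimal list holds 3845 peaks that passed a reproducibility threshold, the pooled list 29812 weaker and stronger peaks of the joined replicates, and each replicate list 30000 peaks. The signal of a peak is the authors' value, on a scale that is not given in the sources used here, and rank 1 is the strongest peak of a list. The depth behind the peaks is unknown. For each replicate a relative signal is also given, its signal divided by its own median over the optimal peaks it matches, and a match is a summit within 100 bp. All coordinates are in dm6 and counted from 1, and the sequences are from RefSeq's copy of that assembly.

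The 7 windows held 13 optimal peaks, 1 of them shared by the windows of ph-d and ph-p, and 50 pooled peaks. An optimal peak lay in the window of 6 of the 7 genes, all but Scm, while 46.2% of all protein-coding genes had one by the same rule. Longer genes have longer windows, and gene length was not allowed for. For Pc and Sce the only such peak lay at the start of a neighbouring gene. By distance from a start site, 3 of the 7 genes, ph-p, ph-d and Su(z)2, had an optimal summit no more than 1 kb away, against 22.4% of all protein-coding genes. At 500 bp these were 2, ph-p and Su(z)2, against 19.7% of all. In the pooled list all 7 had a summit within 1 kb, against 63.4% of all. A gene with several start sites can be called through any of them, and the number of starts was not allowed for. ph-p, ph-d, Su(z)2 and Psc have several, while Pc, Sce and Scm have a single start each. With 7 genes these counts are a description, and no test was run on them.

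**Figure D1:**
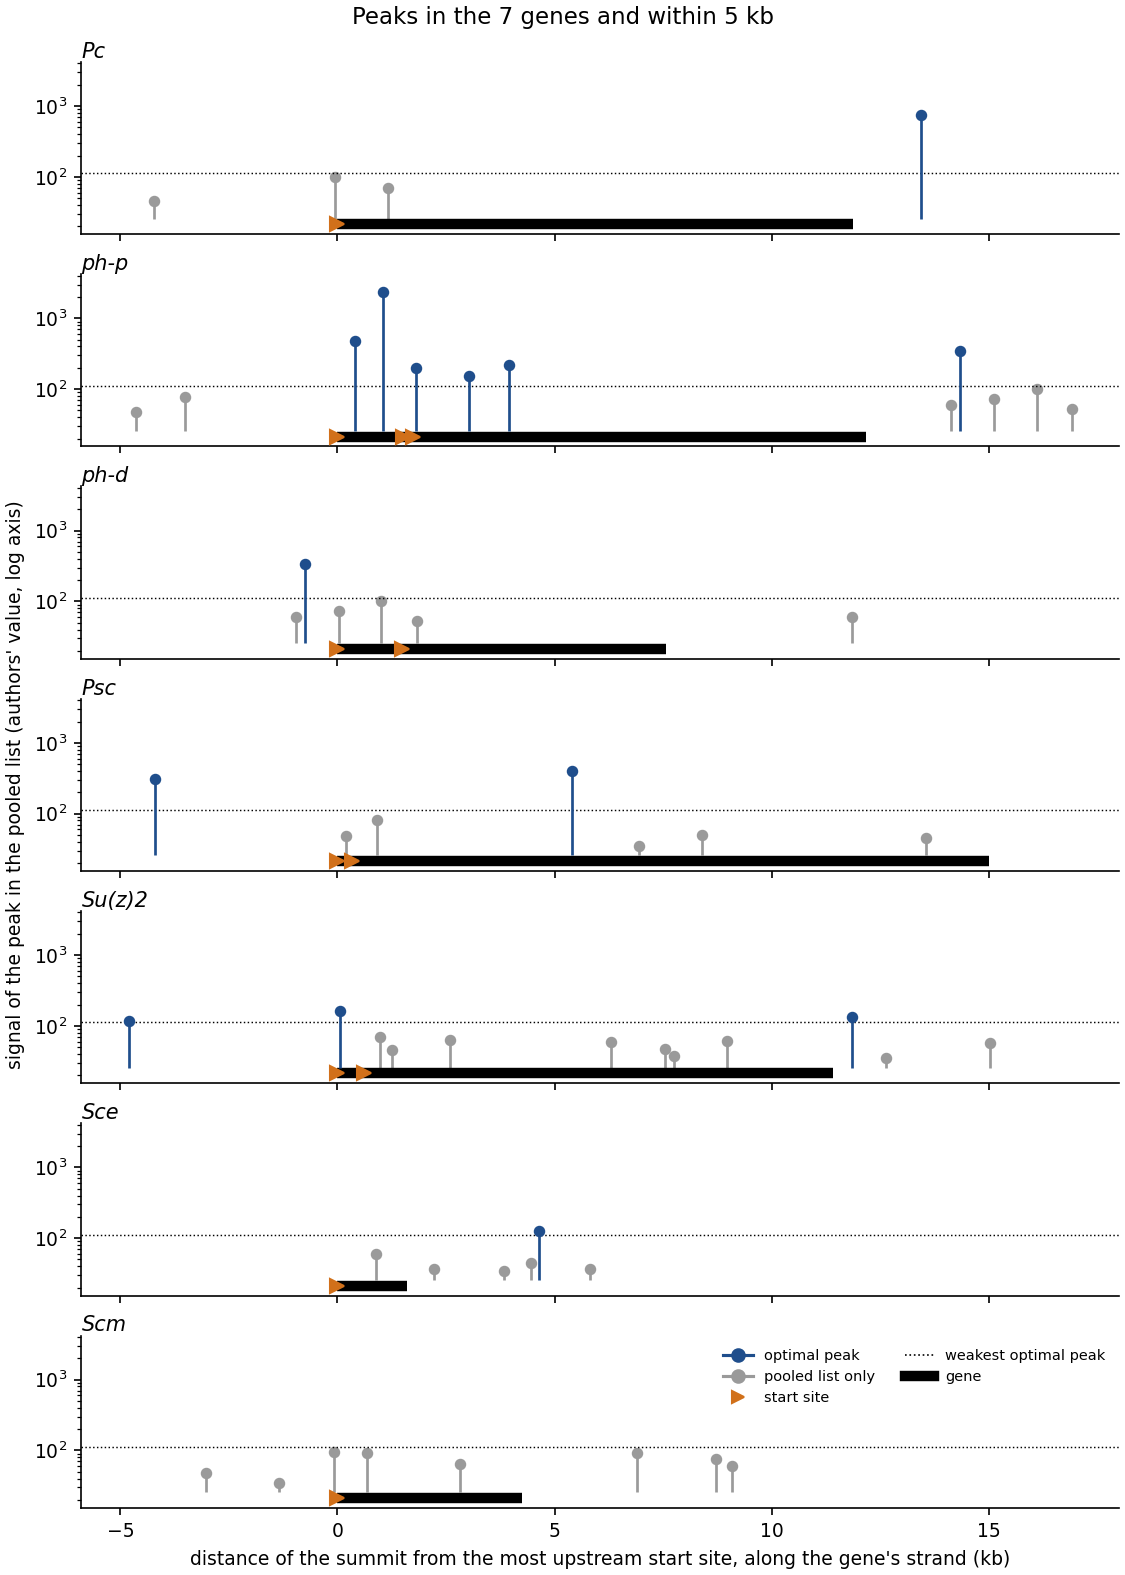
Signal (authors' value, log axis) of every pooled peak in each of the 7 genes and within 5 kb, against the distance of its summit from the most upstream start site in kb along the gene's strand, with optimal peaks in blue and others in grey. The peak of 2327 in ph-p stands above all others, ph-p has 6 blue peaks in its window, and Scm has none.

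The strongest peak lay in ph-p, which is described first with its neighbouring copy. ph-p and ph-d (polyhomeotic proximal and distal) encode PRC1 subunits with a SAM domain, through which the protein forms chains. ph-p lies on the minus strand of X from 2126210 to 2138371 and has start sites at 2138371 (ph-p-RD), 2136855 (ph-p-RB) and 2136622 (ph-p-RA and ph-p-RC). ph-d lies on the same strand from 2115727 to 2123286, with 2923 bp between the genes, and starts at 2123286 (ph-d-RB) and 2121792 (ph-d-RA). The copies aligned in 5 stretches. The longest had 4480 alignment columns at 92.0% identity, and the start of ph-d with the DNA before it aligned to the region before and at the ph-p-RB start over 529 columns at 90.7%.

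The strongest peak of all 7 genes had its summit at X 2137333, in a stretch of 208 bases (X 2137265 to 2137472) that had no aligned partner in ph-d. At the matching place ph-d has 15 bases (X 2123697 to 2123711), 411 bp upstream of its start. Both are printed from the minus strand with 45 aligned bases on either side, since they show what DNA under the peak one copy has and the other lacks, and capitals mark the unaligned bases.
ph-p, chrX:2137220-2137517: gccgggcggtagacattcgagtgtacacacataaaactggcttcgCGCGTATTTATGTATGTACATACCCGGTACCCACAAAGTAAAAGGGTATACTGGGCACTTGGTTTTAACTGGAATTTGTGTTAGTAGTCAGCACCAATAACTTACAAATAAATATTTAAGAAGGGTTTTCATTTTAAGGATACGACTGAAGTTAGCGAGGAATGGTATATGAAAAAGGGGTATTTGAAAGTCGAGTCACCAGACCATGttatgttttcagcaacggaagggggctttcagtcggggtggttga
ph-d, chrX:2123652-2123756: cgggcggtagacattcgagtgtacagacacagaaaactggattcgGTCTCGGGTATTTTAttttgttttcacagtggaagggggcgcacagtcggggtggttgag

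The lower-case flanks on the left are alike in both copies, and blastn aligned none of the capitals of ph-p to ph-d. Short runs such as GGGTATTT do occur in the capitals of both. The stretch is 37.5% G and C, it gave 1 blastn hit on the 6 chromosome arms, which was itself, and each of its 177 runs of 32 bases occurred once in the assembly. An end-to-end alignment of the same regions, added after the first was seen, set 193 of the 208 bases against gaps, with the summit inside a gap of 47 bases. In 420 bp around the summit 93.3% of the runs of 32 bases were unique.

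This peak, X 2137147 to 2137561, had a signal of 2327 and rank 5 of the 3845 optimal peaks. Replicates 1, 2 and 3 gave it signals of 993.5, 787.6 and 585.1, with ranks of 5, 5 and 9 in their lists. The relative signals were 13.3, 13.6 and 10.7 (12.5 ± 1.55, SD, n = 3). The replicate summits lay 3, 4 and 8 bp from the pooled one. It lies 478 bp upstream of the ph-p-RB start, in an intron of the longer transcript ph-p-RD. Its signal was above that of each of the other 12 peaks in every replicate that had both, and the closest, in the window of Pc, was exceeded 2.99-fold, 4.26-fold and 2.52-fold in replicates 1, 2 and 3.

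Another 4 optimal peaks lay in ph-p. The summit at X 2137970 (2137697 to 2138060, signal 478.5, rank 309) was 401 bp downstream of the ph-p-RD start, in its 5′ UTR. Relative signals there were 3.24, 2.70 and 1.69 (2.54 ± 0.789, SD, n = 3), lowest in replicate 3. The summit at X 2136569 (2136359 to 2136778, signal 200.6, rank 1620) was 53 bp downstream of the ph-p-RA start, with relative signals of 0.944, 0.971 and 1.35 (1.09 ± 0.228, SD, n = 3). Here replicate 3 was the highest. Thus a peak lay within 500 bp of each of the 3 start sites, and the strongest was the one farthest from its nearest start.

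The last pair of ph-p peaks lay in introns. The summit at X 2134419 (2134209 to 2134628, signal 219.7, rank 1418) was 2203 bp downstream of the ph-p-RA start, with relative signals of 1.39, 1.34 and 0.885 (1.21 ± 0.278, SD, n = 3). The summit at X 2135347 (2135137 to 2135556, signal 154.8, rank 2415) was 1275 bp downstream, and its relative signals were 0.810, 1.23 and 0.253 (0.766 ± 0.492, SD, n = 3). The third value is near the weakest that replicate 3 lists, 0.230, and a stronger replicate 3 summit, with 0.488, lay at 2135222, outside the 100 bp of a match. Relative to the mean, the SD of this peak was the largest of the 5.

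The 5 summits spanned 3551 bp, with neighbours from 637 to 1222 bp apart. In the whole optimal list 15 peaks (0.390%), these 5 included, sat in a group of as many within as short a span. With the shared peak ph-p had 6 optimal peaks in its window, and 48 of 13945 protein-coding genes (0.344%) had as many or more. Gene length was not allowed for in that count.

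The single optimal peak of ph-d lay upstream of the gene, X 2123930 to 2124123, with its summit at 2124033, 747 bp before the ph-d-RB start. It is printed as the ph-d peak to set beside the ph-p sequence above, from the minus strand and with no capitals, since none of the words searched below occurs in it.
ph-d upstream peak, chrX:2123958-2124108: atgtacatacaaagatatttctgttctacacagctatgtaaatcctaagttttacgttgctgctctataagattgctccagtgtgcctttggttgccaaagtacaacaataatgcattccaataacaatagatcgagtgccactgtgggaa

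Its signal was 342.0 (rank 643), and the relative signals of 1.94, 1.77 and 1.67 (1.79 ± 0.136, SD, n = 3) lay close together. The strongest ph-p peak exceeded it 6.86-fold, 7.67-fold and 6.44-fold in replicates 1, 2 and 3 (6.99 ± 0.626, SD, n = 3). The summit fell in an alignment to ph-p of 387 columns at 70.5% identity. Its place in ph-p was about X 2137834, estimated by linear interpolation between the ends of the alignment. All runs of 32 bases around the ph-d summit were unique. The optimal ph-p peak from 2137697 to 2138060, signal 478.5, covers that estimated place. In turn the summit of that ph-p peak falls at about X 2124278 in ph-d by the same kind of estimate. This place is inside a pooled ph-d peak from 2124022 to 2124441 (summit 2124232, 946 bp upstream of ph-d-RB, signal 60.4, rank 10337). Aligned DNA upstream of ph-d-RB and of ph-p-RB thus lay under peaks in both copies, though in ph-p it is downstream of the ph-p-RD start. Of the ph-d peaks, that with its summit at 2124232 was in the pooled list only. The strongest ph-p summit lay in bases with no aligned partner. The peak of that summit, X 2137147 to 2137561, also reached into the aligned stretches on both sides, of 90.7% and 70.5% identity. Its summit was 68 bp from the nearer end of the unaligned bases.

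At the starts of ph-d themselves only pooled peaks were found. A summit 31 bp downstream of the ph-d-RB start had a signal of 73.04 (rank 7312), and a summit 480 bp upstream of the ph-d-RA start 101.2 (rank 4464), both under the weakest optimal signal of 112.0. The first falls, by interpolation in its alignment, at about X 2136821 in ph-p, just inside the ph-p-RB transcript, and no pooled summit of ph-p lay there. In 420 bp around the first, 97.7% of the runs of 32 bases were unique.

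**Figure D2:**
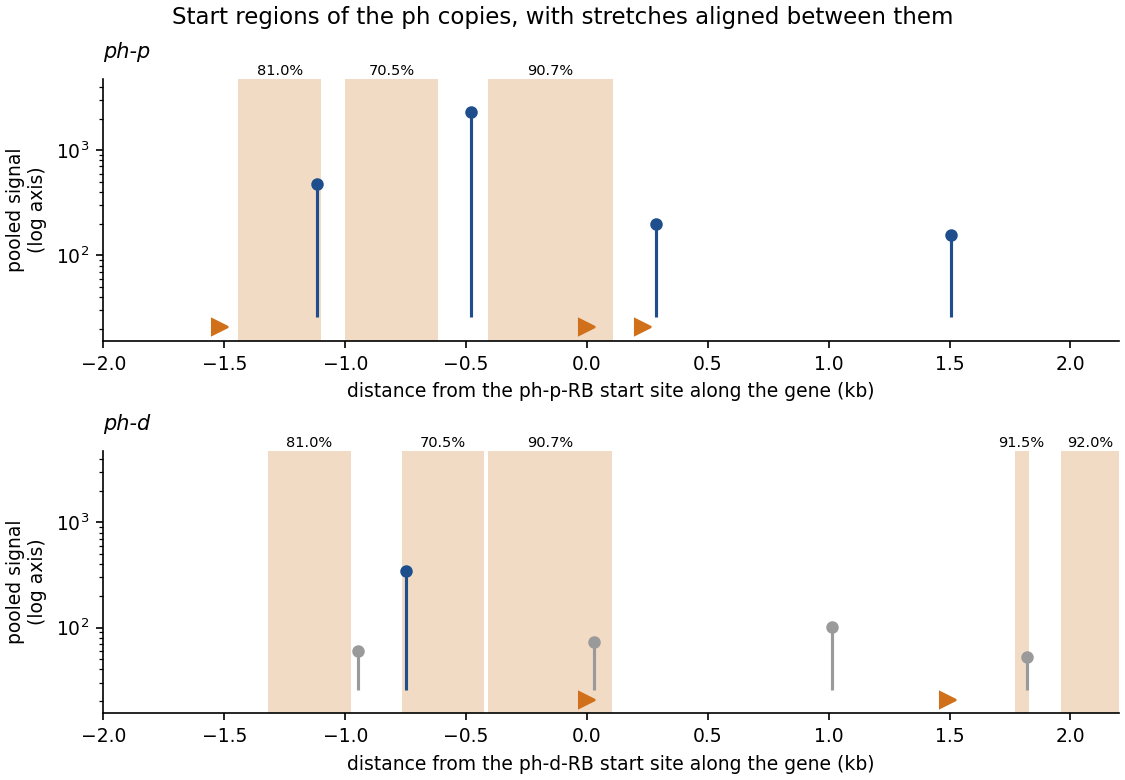
Signal of pooled peaks (authors' value, log axis) around the ph-p-RB and ph-d-RB starts (triangles mark starts), with stretches aligned between the copies shaded and their identity in percent above. Blue peaks are optimal, and the peak of 2327 in ph-p stands in the unshaded space between the 70.5% and 90.7% stretches, which is nearly closed in ph-d.

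Psc (Posterior sex combs) and Su(z)2 (Suppressor of zeste 2) encode related subunits that compact chromatin, and they too are neighbours. Psc lies on the minus strand of 2R from 12965997 to 12980994 and Su(z)2 on the plus strand from 12996501 to 13007911, with their starts facing each other 15506 bp apart. No blastn alignment joined them, unlike the ph copies.

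Psc had optimal peaks far from its starts. The summit in its intron, 2R 12975599 (12975496 to 12975691, signal 402.1, rank 453), was 5059 bp downstream of the Psc-RB start, with relative signals of 2.33, 1.80 and 2.06 (2.06 ± 0.264, SD, n = 3). All 3 replicates had it at about the same height. The summit at 12985185 (12984975 to 12985394, signal 313.4, rank 745) was 4191 bp upstream of Psc and 182 bp upstream of the non-coding RNA gene lncRNA:CR44339, with relative signals of 1.84 in replicate 1 and 1.77 in replicate 3 and no match in replicate 2. At the starts of Psc the pooled list had signals of 80.6 (rank 6260), 573 bp downstream of Psc-RB, and 48.0 (rank 16149), 144 bp upstream of it.

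Su(z)2 had an optimal peak at its start, with the summit at 12996559 (12996349 to 12996768, signal 163.0, rank 2244), 58 bp downstream in the 5′ UTR of Su(z)2-RB and Su(z)2-RC. Relative signals were 0.882 in replicate 1 and 0.779 in replicate 3, with no match in replicate 2. The summit at 12991692 (signal 118.6, rank 3534) was 4809 bp upstream and nearer to the start of CG33798, at 2205 bp, with 0.430 and 0.535 in replicates 1 and 3 and again none in replicate 2. Beyond the far end of the gene, 13008352 (signal 132.2, rank 3046) had 0.549, 0.642 and 0.909 (0.700 ± 0.187, SD, n = 3). Psc thus had the stronger peaks away from its starts, and Su(z)2 a weaker one at its start.

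The 3 peaks without a match in replicate 2 lie side by side. Replicate 2 listed no summit for 19075 bases, between 12980014 and 12999090 on 2R, where replicate 1 listed 11 summits, replicate 3 listed 7, and the optimal list 3. The other replicates matched all 13 peaks. Replicate 2 had 638 stretches at least as long with no summit, and this was the only one of them with as many as 3 optimal peaks, while replicates 1 and 3 had no such stretch. Of the 744 optimal peaks with a signal of at least 313.4, 6 (0.806%) were unmatched in replicate 2. The gap holds the starts of both genes, and its cause was not tested.

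Pc (Polycomb) encodes the chromodomain subunit that binds the methylated histone. It lies on the minus strand of 3L from 21306138 to 21318020, with 1 start site. Its window held the second strongest peak of the set, but at the other end of the gene: the summit at 3L 21304573 (21304427 to 21304729, signal 743.7, rank 117) was 13447 bp from the Pc start and 85 bp downstream of a start of CG11309. Relative signals were 4.45, 3.18 and 4.26 (3.97 ± 0.686, SD, n = 3), high in all replicates. By position this is a peak of the neighbour's promoter.

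The promoter of Pc had a pooled peak under the optimal threshold, 53 bp upstream of the start, with a signal of 99.4 (rank 4576). Replicates 1, 2 and 3 listed it with signals of 35.1, 36.0 and 29.6, or 0.469, 0.620 and 0.543 relative (0.544 ± 0.0754, SD, n = 3). The sequence around this summit is shown because it holds, a pair of bases apart, the forkhead core word, here in its longer form GTAAACA, and the word CGATA. The forkhead word crosses the edge of the 50 bp beside the summit, so it is not wholly inside the distance used for peaks further on. The promoter window of Pc, also counted there, does hold it. The sequence is printed from the minus strand, and capitals mark TGTTTA (the reverse complement of TAAACA) and TATCG (that of CGATA).
Pc promoter, chr3L:21317998-21318148: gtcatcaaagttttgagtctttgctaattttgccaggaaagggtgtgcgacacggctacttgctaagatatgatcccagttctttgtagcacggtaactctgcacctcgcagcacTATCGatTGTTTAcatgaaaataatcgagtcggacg

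Sce (Sex combs extra, also called dRing) encodes the RING finger enzyme that ubiquitylates histone H2A. It lies on the minus strand of 3R from 27680431 to 27682029. The optimal peak in its window, with the summit at 27677378 (27677168 to 27677587, signal 127.2, rank 3211), was 4651 bp downstream of the Sce start and 144 bp upstream of Hsdl2, a gene for a hydroxysteroid dehydrogenase-like protein. Relative signals were 0.437, 0.588 and 1.05 (0.691 ± 0.318, SD, n = 3). Within 1 kb of its own start Sce had 1 pooled summit, in coding sequence 897 bp downstream, with a signal of 60.6 (rank 10275). The strongest summit within 1 kb in each replicate had a relative signal of 0.269, 0.452 and 0.259, where the weakest listed peaks stand at 0.167, 0.263 and 0.230, and in replicate 3 it lay on the upstream side. Of the 7 genes Sce had the lowest signal near its start.

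Scm (Sex comb on midleg) encodes an MBT repeat and SAM domain protein that binds the polyhomeotic proteins and links PRC1 to other Polycomb complexes. It lies on the minus strand of 3R from 9633359 to 9637611, and no optimal summit fell in its window. A pooled summit lay 70 bp upstream of its start with a signal of 96.3 (rank 4776), and another 683 bp downstream in coding sequence with 92.9 (rank 5046). The nearest summit to the start was 43, 69 and 68 bp upstream in replicates 1, 2 and 3, with signals of 26.9, 33.7 and 38.1. So each replicate listed a weak peak at the promoter. Its sequence is printed from the minus strand for its copies of CGATA on either strand, in capitals, among them the DREF word TATCGATA.
Scm promoter, chr3R:9637606-9637756: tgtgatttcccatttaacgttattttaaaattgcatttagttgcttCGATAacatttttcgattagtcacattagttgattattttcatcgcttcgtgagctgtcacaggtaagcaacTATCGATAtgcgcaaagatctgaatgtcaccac

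**Figure D3:**
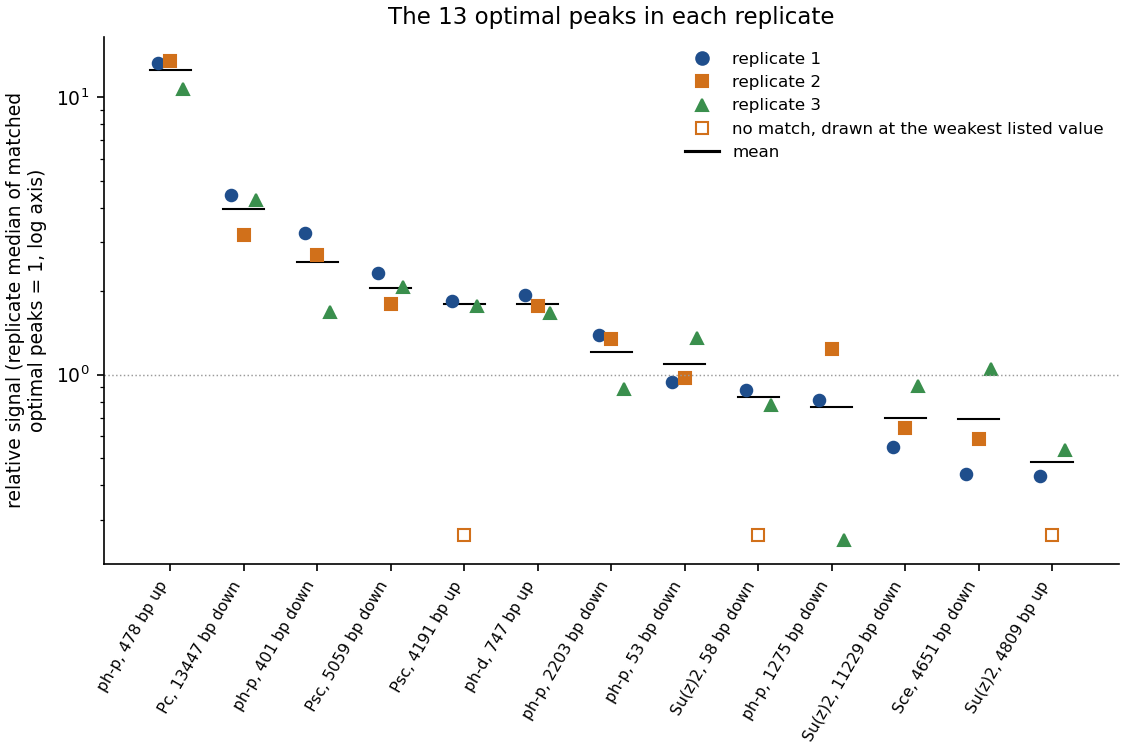
Relative signal (log axis, median of matched optimal peaks in the replicate = 1) of the 13 optimal peaks in replicates 1, 2 and 3, with the mean as a bar and each peak named by its gene and its distance from the nearest start of that gene. The strongest ph-p peak stands highest in every replicate, and open squares mark the 3 peaks of Psc and Su(z)2 with no replicate 2 match, drawn at its weakest listed value of 0.263.

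Across the set, 10 of the 13 optimal peaks were matched in all 3 replicates, against 88.7% of all optimal peaks (3411 of 3845). Replicate 2 lacked 3 and the others none. The median distance of replicate summits from the optimal summit was 14 bp for these peaks and 15 bp for all. The median coefficient of variation of relative signal was 22.0% for the 10 and 18.8% for all 3411. Of the 13, 8 had a signal above the median of all optimal peaks, and their median was 219.7 against 180.6. The authors' −log10 q of the 13 ran from 2.90 to 3.67. Peaks with signals from 163.0 to 2327 shared the upper value, so it does not rank them.

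By position, 7 of the 13 summits lay within 500 bp of an annotated start of any gene, 3 of them at ph-p, 1 at Su(z)2 and 3 at neighbours (CG11309, lncRNA:CR44339 and Hsdl2). The share of all optimal peaks this near to a start was not computed, so whether 7 of 13 is unusual is unknown. The nearest start belonged to one of the 7 genes for 9 peaks. Pc, Sce and Scm therefore had no optimal peak nearest to them, and all 9 were at ph-p, ph-d, Psc and Su(z)2, the neighbouring pairs.

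Words were also counted in the promoters. The word GAGAG, bound by GAGA factor (the product of Trl), was sought on both strands from 250 bp before to 50 bp after each start. It occurred in 9 of the 12 start windows of the 7 genes, against 33.1% of 19253 such windows. These 9 were all starts of ph-p, ph-d, Psc and Su(z)2, with up to 7 copies at Psc-RB, and none of the windows of Pc, Sce and Scm had it. A pair of the ph-p windows overlap, and the ph copies share sequence, so the windows are not independent. The word TGTGTG, to which no factor was assigned, was in 5 of the 12 windows, against 21.8% of all. It divided the genes in the same way, with a window at each of ph-p, ph-d, Psc and Su(z)2 and none at Pc, Sce and Scm. The words given next did not divide the genes this way. GCCAT was in 4 of the 12 windows, of Sce, Scm, Psc and ph-p (41.0% of all windows), CGATA in 3, of Scm, Pc and ph-p (45.7% of all), and TAAACA in 2, of Pc and Su(z)2 (31.4% of all).

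Within 50 bp of the peak summits GAGAG was found in 2 of the 13, both in the window of Su(z)2, against 10.7% of all optimal peaks. The forkhead core TAAACA was found in 1 of 13, the intronic peak of Psc, against 13.4% of all, and its longer form GTAAACA, which contains it, in 0 of 13 against 3.56%. The word GCCAT, the core bound by Pho, was found in 2 of 13 against 16.5%, and CGATA, part of the DREF word, in 0 of 13 against 20.5%. In the same 50 bp on either side of its summit the strongest ph-p peak held none of the 12 words searched, which were these and the DREF word TATCGATA, the M1BP word GGTCACACT, the Zelda word CAGGTAG, the E-boxes CAGCTG as well as CACGTG, and AAAAATA and also TGTGTG, to which no factor was assigned. A word in a window is a match of letters only.

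By relative signal in the 3 replicates, the optimal peaks most like the strongest ph-p peak were those nearest to Chro, CG11050, Lk6, CG1888 and px, of 3410 other peaks matched in all 3. Likeness was the distance between the log2 relative signals, from 0.22 at Chro to 0.37 at px. The peak at Chro, 90 bp downstream of its start, had a signal of 2283, and relative signals of 12.1, 12.7 and 11.8. Those at Chro, CG1888 and px were at promoters, and those nearest to CG11050 and Lk6 were in introns, 1032 and 981 bp from those starts.

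Other genes of Polycomb and trithorax biology were set beside the 7 at 1 kb. In a list of other Polycomb group genes, which also holds genes for recruiting factors such as Trl, 12 of 24 were called (50%). The strongest were Trl (signal 450.1), Sfmbt (362.1), which encodes a partner of Pho, and Jarid2 (324.2). Jarid2 encodes a cofactor of the histone H3 lysine 27 methyltransferase, and its peak lay nearer to Uch-L5. PRC1 stood at 3 of 7 (42.9%). Of the trithorax group, which opposes Polycomb silencing, 8 of 12 were called (66.7%), with fs(1)h at 342.6, nearer to mys, and the Brahma complex genes mor at 278.4 and brm at 246.2. Of 20 developmental genes known as Polycomb targets 1 was called (5%), ey at 177.2. The median signal of the called genes was 342.0 for PRC1 and 251.7 for the list of other Polycomb group and recruiting genes. It was 215.0 for the trithorax group and 197.0 for all 3125 called genes. The PRC1 median rests on 3 genes, and calypso and lid were not found by symbol.

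**Figure D4:**
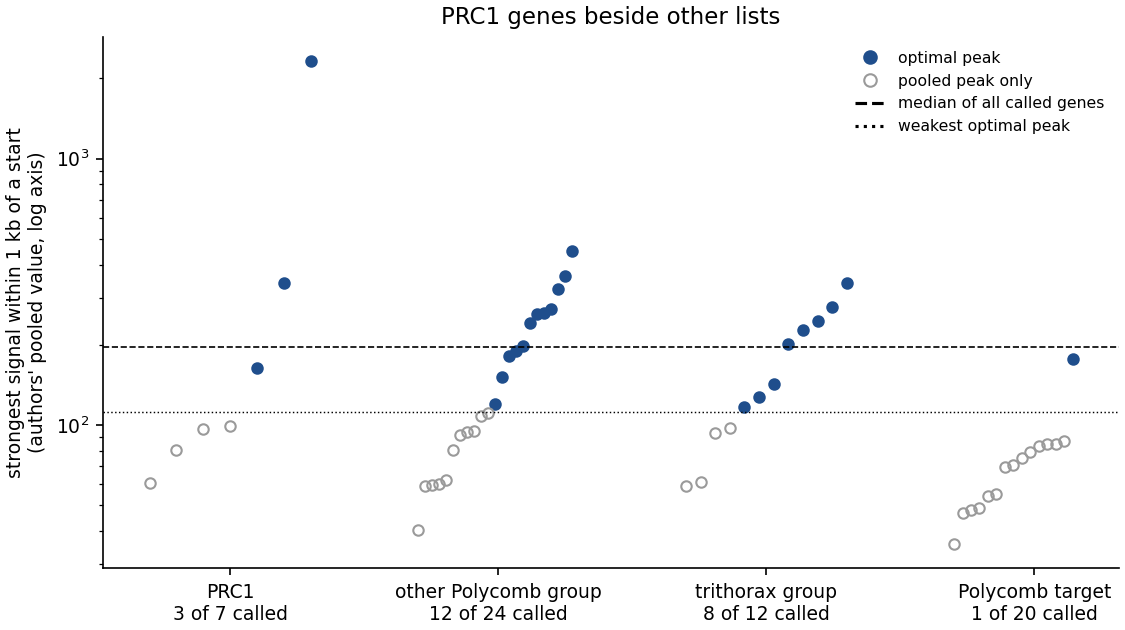
Strongest pooled signal (authors' value, log axis) within 1 kb of a start for each gene of 4 lists, filled where an optimal peak lay there and open where only a pooled peak did. The ph-p point of 2327 lies above every other listed gene, genes with no pooled peak are not drawn, the dashed line is the median of all called genes (197.0), and the dotted line the weakest optimal peak (112.0).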

How the data were processed

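The measurement was ChIP-seq of jumu-eGFP in 3 biological replicates of 1 group. Per the deposited readme files, the authors made relaxed lists of peaks and background for each replicate and for the pool, and an optimal list by the irreproducible discovery rate, all against a control alignment. Neither the peak caller and its settings nor the threshold and depth are stated in the labels or headers read here. The signal of each peak and its −log10 q are the authors' deposited values, used only to describe, rank and filter peaks, and the depth that limits their precision is unknown. Sonicated fragments were of 200 to 800 bp, per the labels. The dm3 lists were not used.

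Gene models were those of Ensembl release 115 (BDGP 6.54) without transposable elements, 18164 genes. On the 6 arms no gene or peak ended beyond the RefSeq release 6 sequence. A gene was called where any of its starts had an optimal summit within 1 kb, and a summit within 500 bp of a start was called promoter. Summits within 5 kb of a gene belong to its window. The strongest replicate summit within 100 bp was the match, and replicates were scaled to their medians over matched optimal peaks, 74.8, 58.1 and 54.5. Values are means ± SD over replicates. A call is a position, and binding of Jumeau was not told apart from antibody background or open chromatin, since no control was analysed here. Alignments used blastn 2.17.0+ and Biopython 1.88, and counts pandas 2.3.3. The scripts were tested on simulated data.

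The genes named are the 7 members, every gene whose start was nearest to an optimal peak in their windows, the 3 strongest called genes of each other list and the 5 most similar peaks. Members and lists were chosen with earlier results of these data known. Alternatives were other distances, lists, matches and scalings and leaving out each replicate.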

Additional observations from a re-analysis of the deposited data

How the results depend on the processing

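Of the 7 genes, 3 were called within 1 kb, against 22.4% of all protein-coding genes. With all pooled peaks in place of the optimal ones 7 were called, against 63.4% of all. At 5 kb the count was 5. Sce was added only through the peak 144 bp upstream of Hsdl2, and Psc only through the peak 182 bp upstream of lncRNA:CR44339. The share of all genes at 5 kb was not computed. The count was 2 within 500 bp, against 19.7% of all. It was also 2 with the 1922 stronger optimal peaks, and with the 2213 peaks among the strongest of every replicate. Leaving out a replicate kept optimal peaks among the strongest of both others (2411, 2612 and 2655 peaks without replicate 1, 2 and 3), which gave 2 to 3 called genes and 8 to 9 of the 13 peaks in the windows. The 1922 stronger peaks kept 8 of the 13. For all these smaller sets of peaks the share of all genes called was not computed. Windows of 2 and 10 kb held 10 and 17. Promoter peaks were 5 at 250 bp and 8 at 1 kb, against 7. These sets are smaller by construction, and whether the lost replicate or the smaller set lowered a count was not tested. All 13 relative signals moved by less than the SD between replicates under other match distances and scaling. Without one replicate their means were 0.694 to 1.335 times those given, and the strongest ph-p peak ranged from 12.02 to 13.42 times the median without one. No paired analysis was possible because there was 1 group. Unknown depth means that a peak missing from a list may be one too weak to be listed there.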

Other observations

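Several weaker pooled peaks in the windows of the 7 genes lay at starts of their neighbours. In the window of Pc a summit 131 bp upstream of Rab26, a gene for a small GTPase, had a signal of 45.4 (rank 18002). In that of ph-p a summit 383 bp downstream of a start of D2hgdh, a gene for a hydroxyglutarate dehydrogenase, had 78.1 (rank 6571). In that of Scm a summit 130 bp downstream of a start of Calr, the calreticulin gene, had 92.5 (rank 5079), and a summit 97 bp downstream of a start of Dh44, a diuretic hormone gene, had 48.1 (rank 16052). None of these is in the optimal list. They were picked after their values were seen.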
